A study of Secale cereale x Triticum turgidum subsp. durum with 48 samples.

Results

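The 2 outer layers of the triticale grain, epiderm and pericarp, were compared in 4 of the 48 arrays of a survey of triticale organs on the Affymetrix Wheat Genome array. Triticale is a cereal bred from rye and wheat. The arrays were chosen by their titles, 2 labelled Epiderm and 2 labelled Pericarp. Epiderm was the outermost layer of the grain coat, and pericarp was the layer under it, on the side of the endosperm. Both came from unmodified grains of the cultivar AC Certa at Zadoks stage 85, the soft dough stage at which the grain is filled but still soft, from plants kept in a growth chamber. The titles call the arrays biological replicates, and the labels do not say how many plants or grains went into each. Epiderm RNA was prepared with a plant RNA column kit, and pericarp RNA with a guanidine hydrochloride buffer followed by column cleanup, so tissue and extraction method cannot be told apart within these 4 arrays. The other arrays used beside them were 3 each of endosperm, crease and embryo from grains of the same cultivar and stage, and the 35 arrays of root, coleoptile, stem and leaf.

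The cereal pericarp is the fruit wall, tissue of the mother plant that surrounds the embryo and the starchy endosperm. Its inner part holds a layer of green cells with chloroplasts, and its epidermis carries the cuticle that limits water loss. As the grain ripens the outer cells of the pericarp lose their contents and become a dry, walled cover. Photosynthesis genes mark green tissue, purothionin genes mark starchy endosperm, and genes of wall-loosening enzymes such as xyloglucan endotransglucosylases are known from growing or remodelled tissue.

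Each array read 61290 probe sets, short-oligonucleotide sets that each stand for a transcript, of which 61115 were tested after control and reporter probe sets were left out. Values are log2 signals, and a difference is always epiderm minus pericarp, so that 1 is a doubling. The background level of 5.99 was the 95th percentile of the reporter probe sets, which stand for genes not of wheat. The share of probe sets above it was 33.9% and 34.2% in the epiderm arrays and 33.8% in both pericarp arrays, and the medians lay at 4.93 and 4.92 in epiderm and at 4.90 and 4.91 in pericarp. Across probe sets the arrays of a tissue correlated at 0.986 in both tissues, and epiderm with pericarp at 0.93. Both tissues correlated better with endosperm, epiderm at 0.945 and pericarp at 0.96, than with each other. In dissected bulk samples, fewer cells of a type and less RNA per cell cannot be told apart.

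Epiderm and pericarp differed on 6608 probe sets, 10.8% of those tested. Of these, 3412 (5.58%) were higher and 3196 (5.23%) were lower in epiderm. The call needed a limma p, adjusted by Benjamini-Hochberg over all tested probe sets, under 0.05 in a fit of all 48 arrays, and a difference of at least 1 in size. The large differences were mostly lower in epiderm. At least a 4-fold difference was reached by 788 probe sets higher and 1429 lower in epiderm, at least 8-fold by 201 and 723, and at least 16-fold by 62 and 302. At 64-fold or more there were 11 higher and 21 lower. Where the dimmer tissue was under background, as for 1108 of the higher and 1172 of the lower probe sets with the other tissue above it, such a ratio depends on a signal that is not above background. Against a difference tested to exceed 2-fold, limma's treat called 733 higher and 1404 lower.

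**Figure D1:**
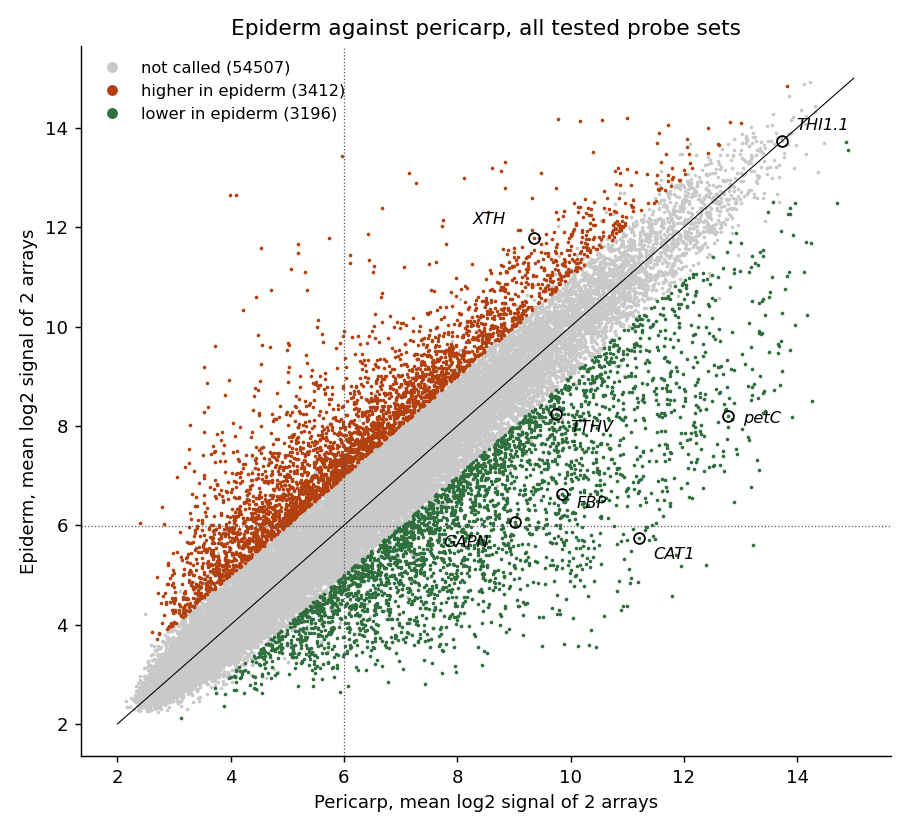
Mean log2 signal of the 2 epiderm arrays (vertical) against that of the 2 pericarp arrays (horizontal) for all tested probe sets, with 3412 higher in epiderm in orange, 3196 lower in green and the rest in grey. Dotted lines mark the background level of 5.99, circles mark the brightest probe set of 7 named genes, and the green cloud reaches farther from the diagonal than the orange one.

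For the probe sets at the extremes, the tissues differed by much more than the arrays of a tissue did, and for the typical probe set by little more. The median size of the difference was 0.21 between the 2 epiderm arrays, 0.21 between the 2 pericarp arrays and 0.245 between the tissue means. The 95th percentiles were 0.74 in epiderm, 0.73 in pericarp and 1.7 between the tissues. Means of 2 arrays vary less than single arrays, so these sizes are not on an equal footing. Both epiderm arrays lay on one side of both pericarp arrays for 3405 (99.8%) of the probe sets called higher and 3168 (99.1%) of those called lower, against 53.2% of all tested. The calls were picked on the difference in these same arrays, so this separation largely follows from the call rule and is no separate support. Both tissue means lay under the background for 597 (17.5%) of the probe sets higher in epiderm and 430 (13.5%) of those lower, and these differences are between dim signals. With 2 arrays on a side, the p-values rest on a spread pooled within all groups of the fit, with 32 residual degrees of freedom. The epiderm and pericarp arrays add little to that spread. A small standard error (SE) or p-value therefore does not show that the arrays of a tissue agreed.

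Among the 13 genes whose symbol in the array's annotation is not a number, the 4 widest falls in epiderm were on genes of chloroplast electron transport, sugar phosphate metabolism and peroxide removal. PetC, which encodes the Rieske iron-sulfur protein of the cytochrome b6f complex in the chloroplast, read 8.99 and 7.41 in epiderm and 12.57 and 13.0 in pericarp. The difference of -4.58 (SE 0.237, adjusted p = 4.82e-18) is 24-fold, and no epiderm array came near a pericarp array. FBP, a fructose-bisphosphatase, an enzyme that releases phosphate from fructose bisphosphate on the way to sucrose or in the Calvin cycle, read 6.49 and 6.77 in epiderm and 9.48 and 10.21 in pericarp, a difference of -3.21 (SE 0.268, adjusted p = 2.76e-12). GAPN, the non-phosphorylating glyceraldehyde-3-phosphate dehydrogenase of the cytosol, read 6.51 and 5.64 in epiderm and 8.64 and 9.41 in pericarp, a difference of -2.95 (SE 0.301, adjusted p = 5.66e-10). CAT1, a catalase, which breaks down hydrogen peroxide, read 6.39 and 5.11 in epiderm and 11.12 and 11.31 in pericarp, a difference of -5.46 (SE 0.258, adjusted p = 5.21e-19). With the epiderm array under background set to that level, its fall was at least 32.5-fold. All 4 were dim in root, embryo and crease, where their group means were between 4.51 and 6.15, and bright in leaf. In flag leaf at stage 49 their means were 13.81 for petC, 12.35 for FBP, 11.83 for GAPN and 13.54 for CAT1. Endosperm arrays held them at levels nearer to pericarp than to epiderm, with means of 12.42, 8.72, 7.65 and 10.23 for the genes in the same order. Second probe sets of petC, FBP and CAT1 were dim, at 3.18 to 6.09 in the 4 arrays, and were not called.

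**Figure D2:**
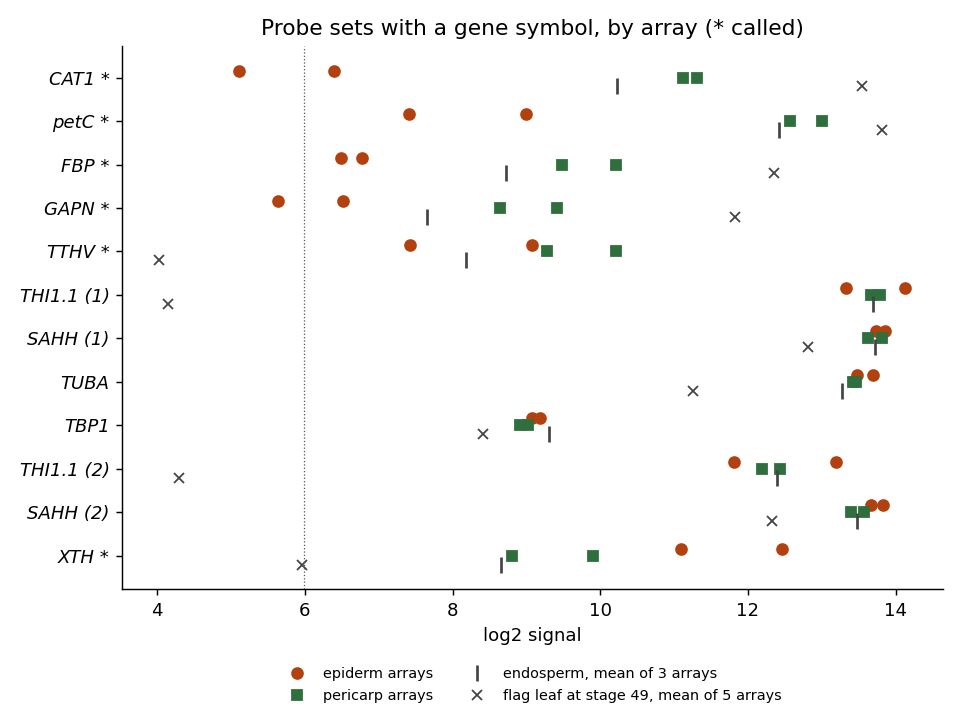
Log2 signal (horizontal) of the 12 probe sets that were above background in either tissue and whose gene symbol is not a number, ordered by the difference, with each epiderm array as an orange circle, each pericarp array as a green square, the endosperm mean of 3 arrays as a bar and the flag leaf mean of 5 arrays at stage 49 as a cross. The dotted line is the background level; CAT1, petC, FBP and GAPN show both epiderm arrays left of both pericarp arrays and the flag leaf farthest right, whereas SAHH, TBP1, THI1.1 and TUBA show the tissues close together.

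The same pattern of bright leaf and dim epiderm was seen for several genes that the annotation gives only by number. LOC606328 read 5.1 and 4.25 in epiderm and 10.77 and 10.87 in pericarp, a difference of -6.14 (SE 0.3, adjusted p = 1.21e-18), and averaged 12.39 in flag leaf at stage 49. LOC542973 differed by -5.20 with a flag leaf mean of 13.38, and LOC542880 by -5.10 with 11.52. With epiderm arrays under background set to that level, the falls were at least 4.83 for LOC606328, 4.58 for LOC542973 and 2.54 for LOC542880. Of the 4 probe sets of LOC606328 and the 3 of LOC542880, 2 each were called, all lower, and the widest is given. LOC543355 and LOC543290 were each read by 2 probe sets, and both probe sets were lower in epiderm. Those of LOC543355 differed by -4.54 and -5.10 and those of LOC543290 by -4.62 and -4.72, with flag leaf means of 12.77 to 13.96. With epiderm set to background in the same way, LOC543355 fell by at least 3.84 and 4.09. The 2 epiderm arrays were apart on most of these genes. LOC543290 read 9.12 and 7.16 on the brighter of its probe sets in epiderm, against 12.75 and 12.97 in pericarp. Epiderm replicate 1 was the higher of the epiderm arrays for petC, GAPN, CAT1 and all 5 of these numbered genes.

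A second set of numbered genes lower in epiderm was brighter in other grain tissues than in leaf. LOC543108 read 7.92 and 8.61 in epiderm and 13.52 and 13.27 in pericarp, a difference of -5.13 (SE 0.376, adjusted p = 8.51e-14), with means of 13.77 in embryo, 12.01 in crease and 4.74 in flag leaf at stage 49. Its other probe set was under background and not called (-0.20). LOC543479 was lower by 2.87 and 4.42 on its pair of probe sets, which averaged 14.04 and 14.12 in embryo. LOC780638 read 5.78 and 6.01 in epiderm and 11.18 and 11.46 in pericarp, a difference of -5.42 (SE 0.349, adjusted p = 2.32e-15), and LOC542914 read 8.51 and 8.11 in epiderm and 13.01 and 13.85 in pericarp, a difference of -5.12. Both were brightest outside the pair in endosperm, at 11.61 and 12.83. LOC542887 read 5.61 and 5.75 in epiderm and 11.22 and 10.56 in pericarp, a difference of -5.21 (SE 1.32, adjusted p = 0.00333), with a crease mean of 10.61. With epiderm arrays under background set to that level, the falls were at least 5.32 for LOC780638 and 4.9 for LOC542887. No function is given for these numbered genes in the annotation used here.

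The genes higher in epiderm were fewer among those with a symbol. XTH, a xyloglucan endotransglucosylase/hydrolase, which cuts and rejoins the xyloglucan chains of the cell wall, read 11.09 and 12.46 in epiderm and 8.81 and 9.9 in pericarp. The difference of 2.42 (SE 0.596, adjusted p = 0.00243) was the one rise among the 13 genes with a symbol that is not a number. Its call rested on particular arrays, since it was lost without epiderm replicate 2 (difference 1.74, adjusted p = 0.119) and without pericarp replicate 1 (1.88, adjusted p = 0.0857), and in treat (adjusted p = 0.245). Outside the pair XTH was highest in coleoptile, at 11.67, and under background in flag leaf, at 5.65 to 5.96.

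Among numbered genes, LOC100049017 rose most, with 11.27 and 11.06 in epiderm and 4.91 and 5.21 in pericarp, a difference of 6.11 (SE 0.359, adjusted p = 1.69e-16). Both pericarp arrays were under background, which makes the rise at least 36-fold. Endosperm at 8.16 was the only other group mean above background, and the next was 5.74 in coleoptile. LOC780640 was higher on all 3 of its probe sets, by 2.32 to 3.42. Its brightest probe set read 9.71 and 10.49 in epiderm and 6.73 and 6.63 in pericarp, and its group means elsewhere were highest in stem at stage 75 (10.8) and at stage 59 (10.13). LOC542871 was higher on both of its probe sets, by 2.33 and 2.35. The first of these read 14.09 and 13.72 in epiderm and 10.9 and 12.22 in pericarp, with 13.29 in flag leaf at stage 49 and 4.84 in root, so a gene bright in leaf could also be higher in epiderm.

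Of the other numbered genes higher in epiderm, LOC100037600, LOC606361 and LOC780572 were bright in coleoptile, and in embryo as well. LOC100037600 was higher on both of its probe sets, by 1.92 and 3.15. The second read 10.36 and 9.82 in epiderm and 6.65 and 7.23 in pericarp. Its group means were 10.62 in root, 10.73 in coleoptile, 9.58 in embryo and 5.16 in crease. LOC606361 read 14.42 and 13.98 in epiderm and 10.62 and 11.39 in pericarp, a difference of 3.19 (SE 0.407, adjusted p = 8.63e-08). It averaged 13.24 in endosperm, 13.2 in coleoptile, 13.01 in embryo, 6.02 in root and 6.16 in flag leaf at stage 49. Its other probe set was under background in both layers and not called (0.34). LOC780572 differed by 4.41 (SE 1.11, adjusted p = 0.00291) and lost its call in treat (adjusted p = 0.0543). It averaged 13.66 in coleoptile, 11.78 in embryo, 11.57 in endosperm and 6.19 in root. LOC780575 differed by 2.99 (SE 0.361, adjusted p = 2.77e-08) and was brightest outside the pair in embryo, at 7.84, but its other 2 probe sets were not called (0.28 and 0.83). The difference of 3.52 for LOC543418 (adjusted p = 0.0101) was lost without epiderm replicate 2 (3.40, adjusted p = 0.0714), without pericarp replicate 2 (3.18, adjusted p = 0.0926) and in treat (adjusted p = 0.198). With both pericarp arrays, which were under background, set to that level, the difference was at least 2.25. The brighter probe set of LOC543418, at 12.67 and 12.76 in epiderm and 12.92 and 13.09 in pericarp, was not called (-0.29).

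The widest differences fell on probe sets without a gene in the annotation. The probe set Ta.556.1.S1_at read 12.68 and 12.62 in epiderm and 3.32 and 4.65 in pericarp. The difference was 8.66 (SE 0.723, adjusted p = 2.94e-12). Both pericarp arrays were under background, and set to that level they leave a rise of at least 101-fold. A second probe set for the same transcript cluster differed by 8.56. Outside the pair Ta.556.1.S1_at averaged 11.55 in coleoptile, 10.28 in root, 8.93 in endosperm and 2.86 in crease. The next cluster by size was that of Ta.4606.1.A1_at, with 13.63 and 13.23 in epiderm, 5.46 and 6.48 in pericarp and a difference of 7.46 (SE 0.868, adjusted p = 1.21e-08). Of the other groups, endosperm (10.33) and coleoptile (9.15) read it brightest. The 12 widest rises came from 8 transcript clusters, and their endosperm means lay between 6.68 and 10.33, all above background.

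On the lower side the widest difference was that of Ta.22984.2.S1_x_at, which read 5.86 and 5.36 in epiderm and 12.96 and 13.48 in pericarp. The difference was -7.61 (SE 0.343, adjusted p = 1.33e-19). Both epiderm arrays were under background, and with these set to the background level pericarp was at least 150-fold brighter. The probe set averaged 14.22 in flag leaf at stage 49, 11.71 in endosperm and 3.09 in root. Another kind was TaAffx.106621.1.S1_at, with 3.62 and 3.51 in epiderm and 9.7 and 10.58 in pericarp, a difference of -6.58 (SE 0.242, adjusted p = 1.48e-21). With both epiderm arrays set to the background level the fall was at least 17.7-fold. The probe set averaged 7.88 in endosperm and at most 4.12 in every other group. Of the 12 widest falls, 6 had no group mean above background outside pericarp and endosperm and 3 read over 12 in flag leaf at stage 49.

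Where both tissues were above background, the 4 widest rises ran between 5.44 and 5.95 and the 4 widest falls between -5.97 and -6.43. The widest differences that were not called ran the same size as many called ones. They were -3.35 (adjusted p = 0.0754), 2.98 (adjusted p = 0.0861) and 2.71 (adjusted p = 0.137). All 3 were called when only the 5 grain tissues were fitted, with adjusted p = 1.71e-05, 0.00666 and 7.27e-05.

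Several bright genes with a symbol were not called. SAHH, S-adenosylhomocysteine hydrolase, which clears the by-product of methylation, read 13.73 and 13.86 in epiderm and 13.62 and 13.82 in pericarp on one of its probe sets. Its difference was 0.08 (95% interval -0.39 to 0.54, adjusted p = 0.902). TUBA, alpha-tubulin, read 13.48 and 13.7 in epiderm and 13.42 and 13.46 in pericarp, a difference of 0.15 (95% interval -0.21 to 0.51, adjusted p = 0.691). TBP1, the TATA-binding protein of transcription initiation, differed by 0.17 (95% interval -0.13 to 0.46, adjusted p = 0.547). The 3 intervals lie inside a 2-fold change in either direction.

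The thionins, small cysteine-rich proteins that harm microbes, included the endosperm gene THI1.1. It read 14.13 and 13.33 in epiderm and 13.79 and 13.67 in pericarp on the brighter of its probe sets, a difference of 0.00 (SE 0.351, adjusted p = 1), and it averaged 13.69 in endosperm, 14.47 in crease and at most 4.3 in vegetative groups. Both layers thus held this endosperm transcript at the level of the endosperm arrays. How far endosperm RNA took part in the differences between the layers was not tested. TTHV, the type V thionin, read 9.08 and 7.42 in epiderm and 10.21 and 9.28 in pericarp, a difference of -1.50 (SE 0.346, adjusted p = 0.00127). That call was lost without epiderm replicate 2 (-0.67, adjusted p = 0.285), without pericarp replicate 1 (-1.03, adjusted p = 0.0981), in a fit of the 4 arrays alone (adjusted p = 0.128) and in treat (adjusted p = 1). THI1.2 stayed under background in both layers, as did COR410, a dehydrin gene of the cold response, and PFK, a phosphofructokinase, which were not called.

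The annotation gave a symbol to 1273 of the probe sets, for 771 genes, and all but 13 of these symbols were gene numbers. Of the annotated probe sets, 122 (9.58%) were higher and 178 (14%) lower in epiderm, and 23.6% were called in either direction, against 10.5% of those without a symbol. Both tissue means were under background for 423 of the 1273 with a symbol and for 37739 of the 59842 without. The shares called are therefore not on an equal footing. By gene, 226 had a call, with 96 higher, 129 lower and 1, LOC542908, with probe sets in both directions. Its 2 called probe sets were under background in both tissues (1.69 and -1.44), and both calls were lost in treat (adjusted p = 0.299 and 0.296). Among 54 genes with 2 or more called probe sets, 53 moved one way on all of them. Among 812 transcript clusters with 2 or more called probe sets the number was 802. Probe sets of one gene or cluster share sequence and are not independent.

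Probe sets were also grouped by how they read in the 44 arrays outside the comparison. The grouping used none of the 4 arrays, was chosen after results were seen and was not tested. Of all tested, 27532 were below background in all 44 outside arrays, and 0.32% of them were lower and 0.872% higher in epiderm. They lower the shares of all tested that are set beside the groups. The leaf group held 893 probe sets that were above background in all 17 leaf arrays and below it in all root and embryo arrays. In epiderm, 401 of them (44.9%) were lower and 26 (2.91%) higher, against 5.23% and 5.58% of all tested, and their median difference was -0.87, against 0.01 over all tested. Their median level was 5.18 and 5.02 in the epiderm arrays, 5.98 and 6.11 in the pericarp arrays and 5.95 in endosperm. The tissue mean was above background for 194 of the 893 in epiderm and for 468 in pericarp. With 1 of the 4 arrays left out, 363 to 399 were lower and the median ran from -0.80 to -0.97.

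Among the 401 leaf probe sets called lower, the median was 4.98 and 4.66 in epiderm and 7.28 and 7.51 in pericarp, and the epiderm mean was below background for 321. The pericarp mean was above the endosperm mean for 337 of them (84%), about the share over all probe sets called lower (85.9%). Epiderm replicate 1 was above epiderm replicate 2 for 306 (76.3%), against 61.7% of all probe sets called lower.

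Probe sets of the grain that were below background in vegetative organs had larger shares called lower in epiderm than all tested, though most were not called lower. Of 496 that were above background in all endosperm arrays and below it in all vegetative arrays, 230 (46.4%) were lower and 59 (11.9%) higher, with a median difference of -0.84. Their median was 7.08 and 6.72 in epiderm and 8.03 and 8.27 in pericarp, with 7.87 in endosperm. Without epiderm replicate 2 the median was -0.55, with 157 lower. Of 763 defined likewise by crease, 333 (43.6%) were lower and 12 (1.57%) higher, and of 443 defined by embryo, 127 (28.7%) were lower and 10 (2.26%) higher. The endosperm and crease groups shared 322 probe sets, 64.9% and 42.2% of each. The embryo group shared 155 probe sets with the crease group, 35% and 20.3% of each, and 99 with the endosperm group, 22.3% and 20% of each. These 3 groups are therefore not separate observations, whereas the leaf group shares none with them by definition.

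**Figure D3:**
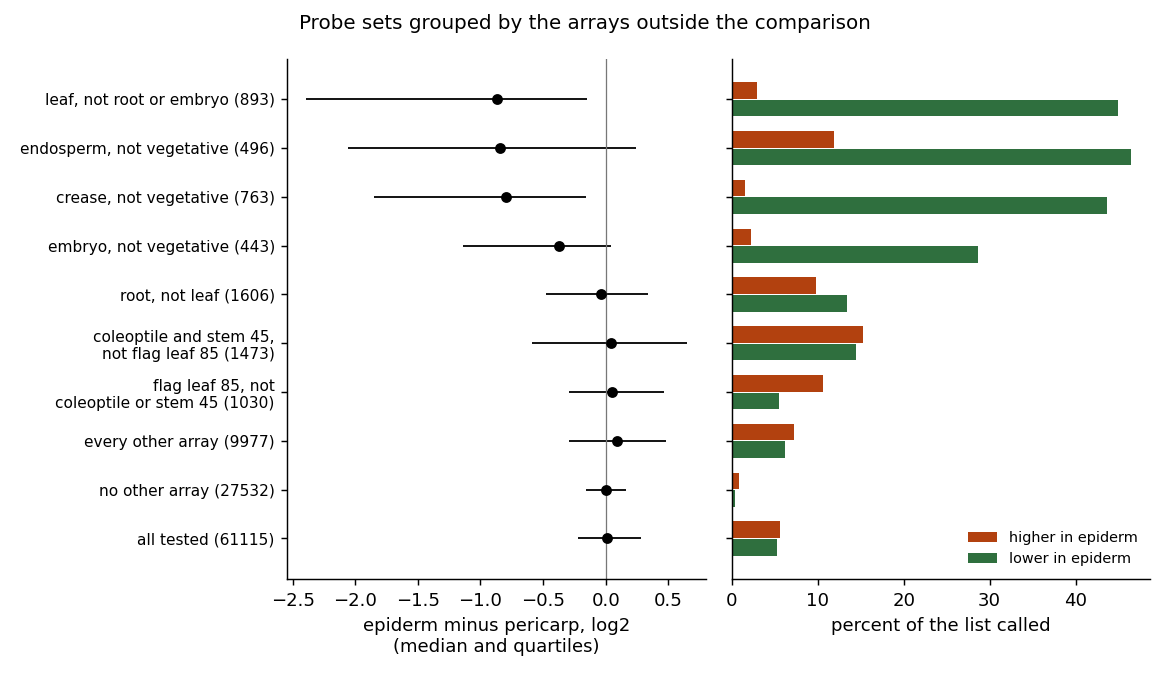
Probe sets grouped by the 44 arrays outside the comparison, with the number in each group in brackets. The left panel shows the median and quartiles of the log2 difference, epiderm minus pericarp, and the right panel the percent of each group called higher (orange) or lower (green) in epiderm; the medians of the leaf, endosperm, crease and embryo groups lie left of 0, and those of the other groups lie near that of all tested, whereas the percent called varies among them.

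The other groups had median differences between -0.04 and 0.09. Of 1473 probe sets above background in coleoptile and stem at stage 45 and below it in stage 85 flag leaf, 226 (15.3%) rose in epiderm and 212 (14.4%) fell, with a median of 0.04. Without epiderm replicate 2 the number higher was 148. Of 1030 with the opposite pattern, bright in the ageing flag leaf, 109 (10.6%) were higher and 56 (5.44%) lower. Of 1606 bright in root and dim in leaf, 157 (9.78%) were higher and 216 (13.4%) lower. The 9977 probe sets above background in every array outside the comparison had 719 (7.21%) higher and 618 (6.19%) lower, close to the shares over all tested.

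The organ in which a called probe set was brightest outside the pair differed between the directions. Stem was that organ for 31.3% of the probe sets higher in epiderm and 19.2% of those lower, against 12.5% of all tested. Root was it for 17.1% of the higher and 5.1% of the lower, and endosperm for 8.97% and 5.98%. Leaf was the brightest organ for 19% of the higher and 24.5% of the lower, embryo for 6.42% and 20.7%, and crease for 3.46% and 18.2%. Of all tested, 6.35% were brightest in root, 3.05% in endosperm, 11% in leaf, 8.37% in embryo and 7.94% in crease. No organ was above background for 10.1% of the probe sets higher in epiderm and 4.47% of those lower, against 49.2% of all tested. Every organ share of all tested is lowered by this. A called share above that of all tested, as for stem and leaf, is therefore not by itself an excess. The shares of the higher and the lower probe sets are closer to an equal footing with each other.

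**Figure D4:**
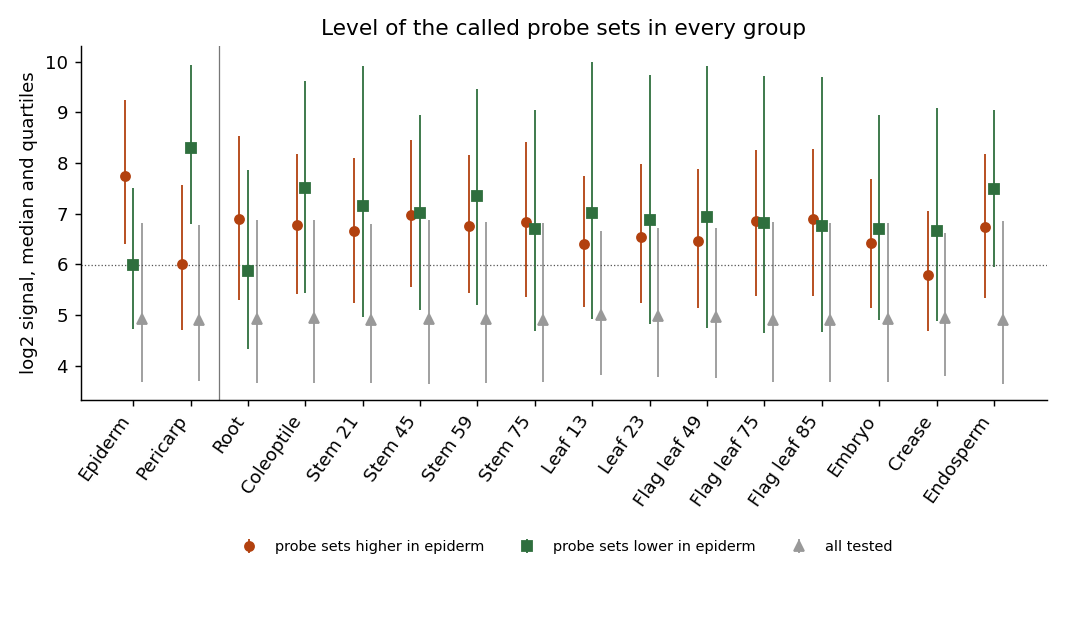
Median and quartiles of the log2 signal in each group of arrays, with epiderm and pericarp left of the vertical line, for the 3412 probe sets higher in epiderm (orange), the 3196 lower (green) and all tested (grey); numbers after stem and leaf are Zadoks stages. Outside the pair the lower set has its highest median in coleoptile (7.5) and endosperm (7.49) and its lowest in root (5.87), and the higher set has its lowest median in crease (5.8).

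Of the 61115 probe sets tested, both layers also held some outside the range of all other arrays. Both epiderm arrays lay above the other 46 arrays on 1271 probe sets, of which 699 were called against pericarp, and below them on 326, of which 139 were called. Both pericarp arrays lay above the other 46 on 300 probe sets, of which 181 were called, and below them on 601, of which 356 were called. Lying outside all other arrays also separates the layers by construction, so these calls are no separate support. Such counts are not given for the other groups, and whether they are larger in these layers was not tested. Among the called ones below in epiderm, the widest difference was -4.12 (adjusted p = 2.25e-05), between 5.45 and 5.99 in epiderm and 9.87 and 9.8 in pericarp. With both epiderm arrays set to the background level the fall was at least 3.84. Among those below in pericarp the widest was 4.96 (adjusted p = 9.19e-15), between 8.84 and 9.02 in epiderm and 4.5 and 3.45 in pericarp. With both pericarp arrays set to the background level it was at least 2.94.

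Among the comparisons of grain tissues given here, all in the same fit, the pair had neither the fewest nor the most calls. Endosperm and crease have 3 arrays each and epiderm and pericarp 2 each, so the counts do not rest on equal numbers of arrays. Epiderm against endosperm had 5028 calls (8.23%), pericarp against endosperm 3746 (6.13%) and epiderm against crease 11129 (18.2%). These comparisons share arrays with the one described here, so their calls are given side by side.

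The array carries 25 control probe sets named for 8 wheat genes, several with versions toward the 5' end, the middle and the 3' end of the transcript. In the same limma model, refitted with these added, 2 of the 25 were called, against 10.8% of all probe sets tested. The 18S rRNA probe set read 9.76 and 8.37 in epiderm and 5.94 and 5.68 in pericarp, a difference of 3.25 (SE 0.735, adjusted p = 0.000951). It reads ribosomal RNA, which carries no poly-A tail and is not the target of the labelling. Over the series its level differed between sets of arrays that also differ in organ and in extraction, which are not separable here. It lay between 6.44 and 10.37 in the 22 arrays of the column kit, between 13.15 and 13.32 in the 12 stem arrays with further cleanup, between 5.68 and 8.86 in the 8 guanidine hydrochloride arrays and between 5.15 and 7.03 in the 6 root and coleoptile arrays. The pericarp arrays were under endosperm and embryo arrays of their own extraction method. The part of RNA preparation in the differences between the layers was not tested.

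**Figure D5:**
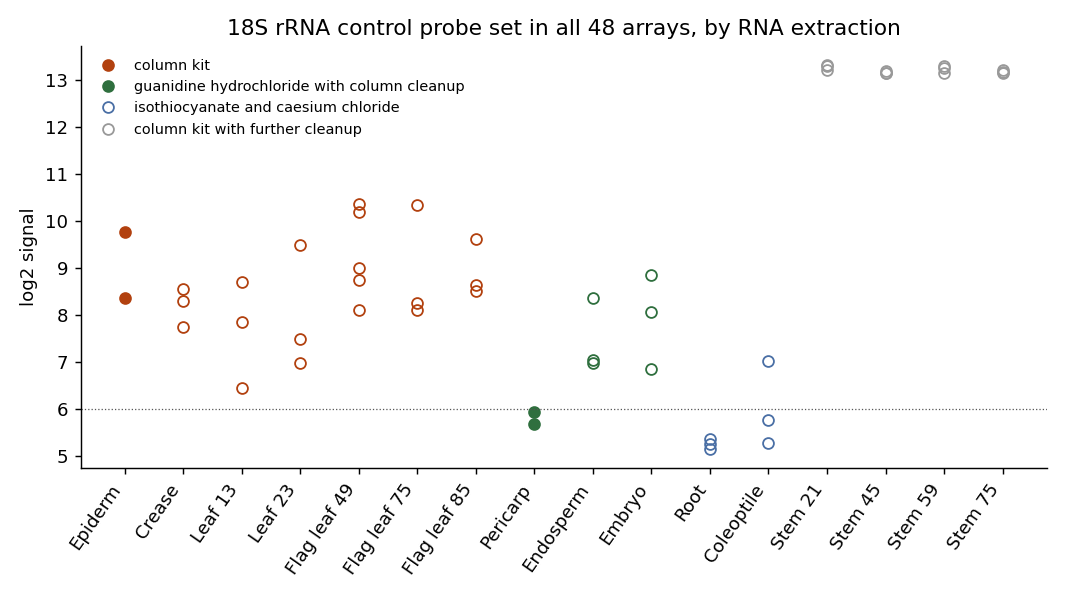
Log2 signal of the 18S rRNA control probe set in each of the 48 arrays, by group and coloured by RNA extraction method, with epiderm and pericarp as filled circles and the background level as a dotted line. The 2 epiderm arrays (9.76 and 8.37) lie among the other column kit arrays, and the 2 pericarp arrays (5.94 and 5.68) lie at or under background.

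CYP86-TA, named for a cytochrome P450 family that adds hydroxyl groups to fatty acids, including those of cutin, read 7.77 and 8.32 in epiderm and 9.02 and 10.2 in pericarp on its 3' probe set, a difference of -1.56 (SE 0.428, adjusted p = 0.00667). Both pericarp arrays lay above every other array of the series, the highest of which, outside the pair, read 8.79. The call was lost without epiderm replicate 1 (-1.29, adjusted p = 0.105), without pericarp replicate 2 (-0.97, adjusted p = 0.246) and in a fit of the grain tissues alone (adjusted p = 0.0547). Its 5' and middle probe sets differed by -0.56 (adjusted p = 0.0732) and -0.70 (adjusted p = 0.0193), under the fold minimum. Without pericarp replicate 1 both were called, at -1.02 (adjusted p = 0.00215) and -1.17 (adjusted p = 0.000422). Sucrose synthase, which splits sucrose for use in sink tissues, differed by -0.59 to -0.97 on its 3 probe sets, glucose-6-phosphate dehydrogenase, the entry of the pentose phosphate pathway, by 0.15 to 0.61 and ubiquitin by 0.21 to 0.38, and none of these was called. Without pericarp replicate 1 the middle probe set of sucrose synthase was called, at -1.41 (adjusted p = 0.0429). The actin, ef1a and gapdh probe sets were not called either. All ef1a probe sets, and the 3' probe sets of actin and gapdh, were under background in both layers. For these, the lack of a call does not show a steady level. The mean 3' minus 5' difference over 7 control genes, a sign of RNA integrity, was 0.47 and 0.29 in epiderm and 0.54 and 0.47 in pericarp. This mean covers genes that went different ways, and for actin, ef1a and gapdh it draws on signals under background. For CYP86-TA the difference was -0.25 and 0.15 in epiderm and 0.82 and 1.08 in pericarp, where 1.08 was the highest of the series. Ubiquitin was also higher in pericarp, by less. Actin and ef1a were lower in pericarp, and for the other genes the arrays of the layers overlapped. The bacterial lys transcripts of the poly-A control mix read 6.49 and 7.29 in epiderm and 8.35 and 8.1 in pericarp.

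The extraction methods split the grain arrays into 5 of the column kit, from epiderm and crease, and 8 of guanidine hydrochloride, from pericarp, endosperm and embryo. The 5 arrays lay wholly on one side of the 8, in the direction of the call, for 112 (3.28%) of the probe sets higher in epiderm and 434 (13.6%) of those lower. In either direction this was so for 1740 (2.85%) of all tested. Such a split needs the epiderm arrays apart from the pericarp arrays, as they were for 99.5% of the calls and 53.2% of all tested. The called shares are thus raised by the call rule itself. Crease against endosperm crosses the same methods and shares no array with epiderm against pericarp. It had 3981 probe sets higher (6.51%) and 6288 lower (10.3%) in crease. Of the probe sets higher in epiderm, 302 were higher in crease, 8.85% of the one list and 7.59% of the other, and 1355 were lower in crease, 39.7% and 21.5%. Of the probe sets lower in epiderm, 872 were higher in crease, 27.3% and 21.9% of the lists, and 1205 were lower, 37.7% and 19.2%. Across all tested probe sets the 2 differences correlated at -0.04, a value over probe sets that share the arrays.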

How the data were processed

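Total RNA was labelled with biotin and hybridised to 1-colour arrays. The deposited table holds log2 values made by the authors with RMA (robust multi-array averaging), per the submitters' processing notes; the values are between 1.92 and 15. RMA equalises the arrays, so a shift common to most transcripts cannot be seen. Array number and signal over background limit the precision.

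Here limma 3.58.1 (R 4.3.3) was fitted to all 48 arrays with a mean per group and moderated variances, without filter. The 111 Affymetrix control and 64 reporter probe sets were left out, and 25 wheat-named controls were fitted in a second pass. The steps were tested on simulated data. Differences of exactly 1 count as reaching the minimum.

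Named probe sets are the 12 widest differences in each direction, the 4 widest with both tissues above background, the 3 widest beyond all other arrays, the 3 widest not called and all wheat-named controls. All genes with a symbol that is not a number, the 8 widest numbered genes in each direction, the 6 in each direction with the widest differences on all of 2 or more probe sets, the gene called in both directions and the other probe sets of these genes were added after results were seen. The members and lists were chosen with earlier results of these data known. Gene names come from the platform annotation of the array (1273 probe sets, none with several symbols), which can be old. The 21 gene lists planned by gene title matched no symbol there, so pathways were described through the named genes and the other organs. Of the planned cell type markers, THI1.1 for starchy endosperm and CYP86-TA for epidermis could be read by name. Against its listing for epidermis, CYP86-TA had lower means in epiderm than in pericarp on each of its probe sets, of which only the 3' one was called. Alternatives covered centring, quantile normalization, filters, variance prior, samples fitted, array weights, replicate block, thresholds, 1 probe set per cluster and each array left out. Coordinates and sequences were not used here.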

Additional observations from a re-analysis of the deposited data

How the results depend on the processing

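With each of the 4 arrays left out in turn, the number of probe sets called was 5751 to 6651, with 2841 to 3618 higher and 2910 to 3057 lower in epiderm, against 6608, 3412 and 3196 with all. Without epiderm replicate 2 fewer were higher (2841) than lower (2910). A pair of thresholds moved the counts by over 1.5 times. Without a fold minimum there were 10997 calls, 6213 of them higher and 4784 lower, and with treat 2137, 733 higher and 1404 lower, so the larger direction turns there too. The replicate numbers are shared by the titles alone, and deviations of same-numbered arrays correlated at 0.0687 across probe sets. With the replicate block there were 6651 calls in the 4 arrays (3458 higher, 3193 lower) and 6849 in the 5 grain tissues (3584 and 3265). Centring on the median, quantile normalization and centring on the hybridization spikes gave 6541, 6486 and 6139 calls, and the median of all probe sets moved to at most 0.04. Leaving the leaf groups out of the fit, an alternative chosen after seeing the data, gave 6864. Of 108 named probe sets 89 and of the 25 controls 21 kept their side of the threshold in every alternative that tested them, and none turned its sign as a call. The results are limited by 2 arrays a side, by an extraction method that differed with the tissue, and by an annotation that names few of the probe sets.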
